A study of Sus scrofa with 12 samples.

Results

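The nuclear genes of respiratory complex I were examined in a back muscle, the longissimus dorsi, of Laiwu and Yorkshire pigs. They were chosen by gene name, as the deposited genes named NDUFA, NDUFB, NDUFC, NDUFS or NDUFV with a number, plus NDUFAB1, and this gave 34 of the 23271 listed genes. All 34 passed the minimum of 0.5 FPKM (fragments per kilobase of gene, scaled to library size) on average over the 12 libraries. Laiwu pigs, from China, are known for fatty muscle, and Yorkshire pigs for lean growth. Poly(A) RNA was sequenced from 6 Laiwu and 6 Yorkshire libraries, from pigs of equal weight per the series' design text. The labels give no genotype, treatment or age, and do not say that the libraries come from separate animals.

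Complex I is the entry point of electrons from NADH into the respiratory chain of mitochondria. Its matrix arm oxidises NADH at the tip and passes the electrons along iron-sulphur clusters to ubiquinone, and its membrane arm pumps protons. Core subunits carry out these reactions, and accessory subunits, added during evolution, surround and stabilise them. The core subunits of the membrane arm are encoded in the mitochondrial genome and are not analysed here. In muscle the complex is most abundant in oxidative fibres, which are rich in mitochondria.

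Complex I transcripts did not separate the breeds in these libraries, and their largest departure was a single Yorkshire library. Of the 34 genes, 0 were called (adjusted p under 0.05) when edgeR's quasi-likelihood fit was run on 11205 genes and its p-values adjusted by the Benjamini-Hochberg method, where the share of all tested genes called was 0.0%. A fitted log2 fold change (Laiwu minus Yorkshire) below 0 was found for 29 of them and above 0 for 5, against 50.3% below 0 over all tested genes. The median over the 34 was -0.17, beside -0.0013 over all tested genes, and it was -0.04 without Yorkshire 5. Without that library 22 genes were below 0 and 12 above, 0 were called (background 0.0%), and 50.4% of all tested genes were below 0. In 29 of the 34 genes Yorkshire 5 held the highest FPKM of the 12 libraries, which was so for 14.9% of all tested genes. That share takes in genes of all lengths, while most members were short, and Yorkshire 5 held more reads of short genes in general.

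The rule also takes NDUFA4 and NDUFA4L2 by name. NDUFA4 is now assigned to cytochrome c oxidase, the last complex of the chain, and NDUFA4L2 is its relative induced by low oxygen in human cells. The median log2 fold change was -0.17 without this pair as well. A further 4 listed genes carry no symbol but are described in the deposited table as the subunits A12, B3, V3 and S7. They are set apart as a group found after the table was seen. The members lay on 16 chromosomes, with 8 on chromosome 2 and 2 on X. NDUFS8 (Sscrofa11.1 chromosome 2, 4862589 to 4867393) and NDUFV1 (chromosome 2, 4958522 to 4964216), both core genes, were separated by 91128 bases.

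Depth was 54961358 to 67285809 counts per library, and the complex I genes held 0.114% to 0.172% of them. The smallest count of any member in any library was 101, for NDUFB1. The labelled tissue was borne out by its markers. Alpha-actin of skeletal muscle, ACTA1, averaged 41620 FPKM across Laiwu libraries and 43900 FPKM across Yorkshire libraries. The muscle creatine kinase CKM averaged 9120 FPKM across Laiwu libraries and 9506 FPKM across Yorkshire libraries. Yorkshire 5 stood apart in a relation to gene length. Across tested genes, its deviation in log2 CPM (log2 of counts scaled to library size) from each gene's mean over 12 libraries had a Spearman's rho of -0.433 with gene length, against -0.115 to 0.183 in the other 11 libraries. RNA quality values per library are not given in the labels, and their part in this was not tested.

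Levels within the complex spanned a wide range per unit length. The highest mean was 77.2 FPKM for NDUFB10, an accessory subunit of the membrane arm, and the lowest 1.51 FPKM for NDUFB2, another. A mean of at least 10 FPKM was found in 23 of the 34 genes. The median of the 34 means was 23.1 FPKM, beside 3.77 FPKM over all tested genes. NDUFB10 ran from 63.6 through a median of 71.8 to 81.1 FPKM in Laiwu, and from 68.0 through 76.1 to 112 FPKM in Yorkshire. NDUFB2 ran from 1.14 through 1.44 to 1.62 FPKM in Laiwu, and from 1.19 through 1.52 to 2.20 FPKM in Yorkshire. Both genes overlapped between the breeds, with their highest value in Yorkshire 5. The summed level of the 34 genes was 831.6 ± 74.3 FPKM (SD) over 6 Laiwu libraries and 896.8 ± 134.4 FPKM (SD) over 6 Yorkshire libraries. Without Yorkshire 5 the Yorkshire sum was 848.1 ± 69.6 FPKM (SD, n = 5). In bulk muscle, fewer mitochondria-rich cells and less RNA per cell cannot be told apart.

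**Figure D1:**
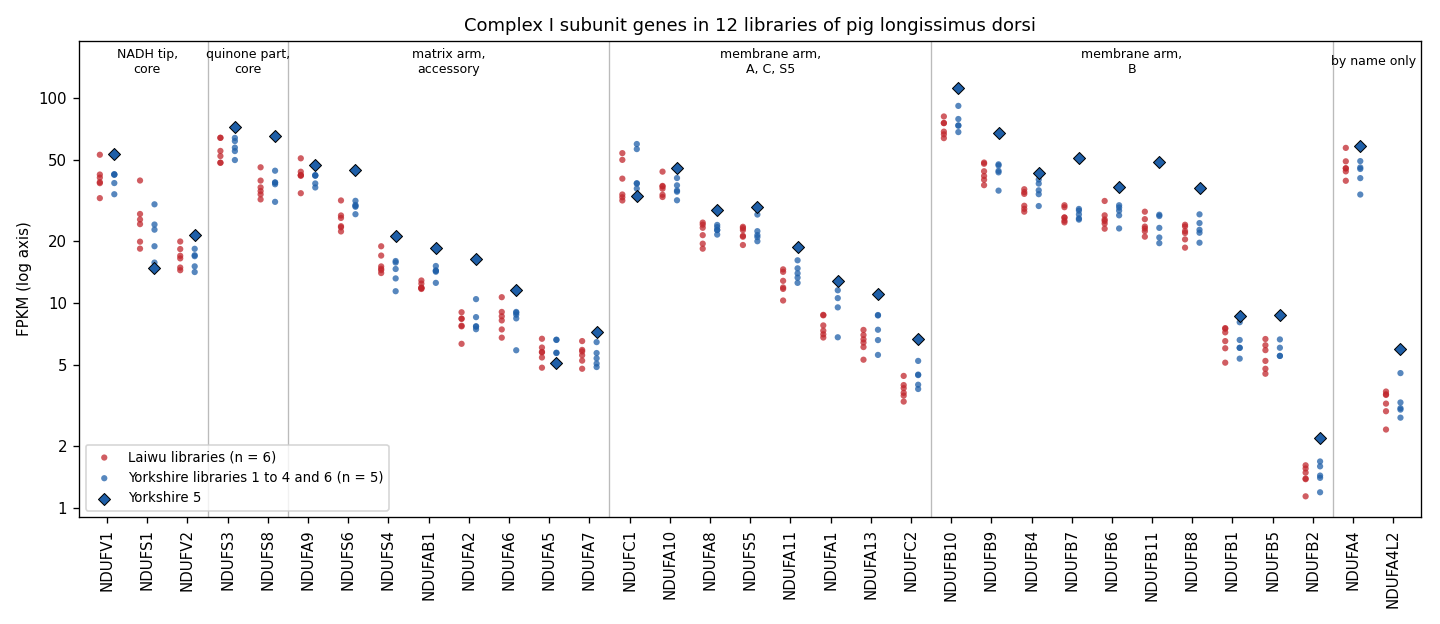
FPKM (log axis) of 33 of the 34 complex I genes, grouped by place in the complex and ordered by mean; each point is 1 library, Laiwu to the left and Yorkshire to the right of each gene. The breeds overlap in all 33 genes drawn, and the diamond of Yorkshire 5 is the highest point in 29.

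The core genes of the NADH-oxidising tip gave no called difference. NDUFV1 encodes the subunit that binds NADH and the flavin that takes its electrons. It ran from 32.4 through 39.8 to 52.8 FPKM in Laiwu and from 33.9 through 42.2 to 53.5 FPKM in Yorkshire. Its log2 fold change was -0.07 ± 0.13 (SE), and 0.03 without Yorkshire 5. NDUFV2, an iron-sulphur subunit beside it, ran from 14.4 through 16.7 to 19.9 FPKM in Laiwu and from 14.1 through 17.0 to 21.4 FPKM in Yorkshire, with a log2 fold change of -0.05 ± 0.12, and 0.04 without Yorkshire 5. Both genes covered nearly the same range in the breeds. NDUFS1, the largest subunit of the complex and a carrier of several iron-sulphur clusters, had the highest fitted value of the 34 genes. It ran from 18.4 through 24.9 to 39.5 FPKM in Laiwu and from 14.8 through 20.8 to 30.2 FPKM in Yorkshire, a log2 fold change of 0.27 ± 0.19 with an edgeR adjusted p of 0.912. With single libraries left out it ran from 0.12 to 0.38. The high value was that of Laiwu 3, and the low one that of Yorkshire 5, where nearly every other member was highest. NDUFS1 (chromosome 15, 109409771 to 109451676) overlaps EEF1B2 on the opposite strand by 163 bases, and EEF1B2 was at a mean of 271.5 FPKM, against 23.4 FPKM for NDUFS1. The sources used here do not say whether reads were counted by strand.

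The core genes of the quinone-binding part were among the more abundant members. NDUFS3, a subunit of the matrix arm, ran from 48.2 through 53.5 to 63.8 FPKM in Laiwu and from 49.7 through 59.3 to 71.9 FPKM in Yorkshire, a log2 fold change of -0.14 ± 0.12 (SE), and -0.07 without Yorkshire 5. NDUFS8, which carries iron-sulphur clusters near the quinone site, ran from 31.95 through 35.8 to 45.8 FPKM in Laiwu and from 31.1 through 38.6 to 64.8 FPKM in Yorkshire. Its log2 fold change of -0.23 ± 0.17 was -0.04 without Yorkshire 5, whose 64.8 FPKM lay far above the next Yorkshire value of 44.1 FPKM. NDUFS7, which holds the last iron-sulphur cluster before quinone, is one of the genes known here by description alone. It ran from 9.66 through 13.6 to 16.1 FPKM in Laiwu and from 10.7 through 14.3 to 19.5 FPKM in Yorkshire, with a log2 fold change of -0.17 ± 0.16 that was -0.04 without Yorkshire 5. The 6 core members had a median log2 fold change of -0.06, which was 0.04 once Yorkshire 5 was left out.

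Among accessory genes of the matrix arm, NDUFAB1 gave the smallest unadjusted p of the 34. It encodes the mitochondrial acyl carrier protein, which sits in both arms of the complex and also serves fatty acid and lipoic acid synthesis and the making of iron-sulphur clusters. In Laiwu it was at 11.7, 11.9, 11.8, 11.8, 12.9 and 12.4 FPKM in libraries 1 to 6, and in Yorkshire at 14.2, 12.5, 15.1, 14.3, 18.6 and 14.4 FPKM. In FPKM, Laiwu 5 reached into the Yorkshire range, and Yorkshire 2 into the Laiwu range, while the other libraries kept apart. On log2 CPM the breeds did not overlap in this gene, a scale on which the share of all tested genes was not counted. Its spread in Laiwu was the least of any member, with a coefficient of variation of 3.81%, against a median of 11.75% over the 34 genes. The mean was 12.1 ± 0.460 FPKM (SD) over the 6 Laiwu libraries and 14.9 ± 2.03 FPKM (SD) over the 6 Yorkshire libraries, and 14.1 ± 0.961 FPKM in Yorkshire without library 5 (SD, n = 5). The log2 fold change was -0.32 ± 0.10 (SE) with an unadjusted p of 0.00704 and an adjusted p of 0.912 by edgeR, so it was not called. It was -0.23 ± 0.07 without Yorkshire 5 (edgeR unadjusted p = 0.00599, adjusted p = 0.9996). NDUFAB1 (ENSSSCG00000010795) lies on chromosome 3 at 22619492 to 22635288.

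NDUFS6, a zinc-binding subunit of the matrix arm needed late in assembly, ran from 22.3 through 24.8 to 31.6 FPKM in Laiwu and from 27.1 through 29.9 to 44.6 FPKM in Yorkshire. Laiwu 6 alone lay within the Yorkshire range. The log2 fold change was -0.35 ± 0.14 (SE; edgeR unadjusted p = 0.0239, adjusted p = 0.912), and -0.22 ± 0.10 without Yorkshire 5. The other accessory genes of this arm were at means between 5.70 FPKM for NDUFA7 and 41.8 FPKM for NDUFA9, a subunit that binds a nucleotide cofactor. NDUFS4, whose loss causes Leigh syndrome in humans, averaged 15.7 ± 1.89 FPKM (SD) across 6 Laiwu libraries and 15.4 ± 3.35 FPKM (SD) across 6 Yorkshire libraries. Of the 8 members in this group 6 had a fitted log2 fold change below 0, with a median of -0.07. Without Yorkshire 5 it was 4 below and 4 above with a median of -0.01, and 4 and 4 with the gene length offset too. Among the genes known by description, chosen after its values were seen, NDUFA12 did not overlap between the breeds. It ran from 9.96 through 10.7 to 11.1 FPKM in Laiwu and from 11.4 through 11.9 to 15.5 FPKM in Yorkshire, a log2 fold change of -0.25 ± 0.11 with an adjusted p of 0.912 by edgeR, and of -0.16 without Yorkshire 5. Over all tested genes, 0.178% had no overlap between the breeds in FPKM, and 0 of the 34 members did. Without Yorkshire 5 the share was 0.214%, and again 0 members did. NDUFV3, also found by description, averaged 2.33 ± 0.507 FPKM (SD) across Laiwu libraries and 2.71 ± 0.407 FPKM (SD) across Yorkshire libraries. NDUFB3, a membrane arm gene found the same way, averaged 27.5 ± 4.33 FPKM (SD) across Laiwu libraries and 29.3 ± 5.39 FPKM (SD) across Yorkshire libraries.

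In the membrane arm all 18 accessory members had a fitted log2 fold change below 0, and the largest in size was that of NDUFA1. Without Yorkshire 5, and likewise with the gene length offset described further on, 15 of the 18 were below 0. This gene, on chromosome X at 98219988 to 98223868, encodes a small membrane subunit needed for assembly of the complex. It was at 7.32, 6.78, 7.03, 7.77, 8.69 and 8.74 FPKM in Laiwu libraries 1 to 6, and at 6.80, 12.7, 10.6, 9.51, 12.8 and 11.5 FPKM in Yorkshire libraries 1 to 6. Yorkshire 1 lay among the Laiwu libraries, and the other 5 lay above all of them. The log2 fold change was -0.49 ± 0.18 (SE) with an edgeR unadjusted p of 0.0167 and adjusted p of 0.912, and -0.42 ± 0.18 without Yorkshire 5. At 198 to 363 counts per library, NDUFA1 was one of the members with the fewest reads.

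NDUFC2, a subunit of the membrane arm, ran from 3.30 through 3.74 to 4.41 FPKM in Laiwu and from 3.80 through 4.46 to 6.64 FPKM in Yorkshire, a log2 fold change of -0.36 ± 0.15. It overlaps THRSP on the opposite strand, which was at a mean of 1.34 FPKM. NDUFB5 ran from 4.51 through 5.55 to 6.67 FPKM in Laiwu and from 5.51 through 6.34 to 8.78 FPKM in Yorkshire, a log2 fold change of -0.32 ± 0.14. Both overlapped between the breeds, with Yorkshire 5 highest. NDUFA13, also known as GRIM-19 and linked to cell death in human cells, ran from 5.28 through 6.52 to 7.38 FPKM in Laiwu and from 5.58 through 8.04 to 11.1 FPKM in Yorkshire. Its log2 fold change was -0.34 ± 0.15, and Yorkshire 2 and 4 lay within the Laiwu range. NDUFA11 and NDUFB4, accessory subunits of the same arm, had log2 fold changes of -0.27 ± 0.13 and -0.23 ± 0.12. NDUFA11 ran from 10.3 through 12.4 to 14.6 FPKM in Laiwu and from 12.5 through 14.3 to 18.8 FPKM in Yorkshire. NDUFB4 ran from 27.8 through 31.9 to 35.8 FPKM in Laiwu and from 29.7 through 36.8 to 42.9 FPKM in Yorkshire. Without Yorkshire 5 the values were -0.22 for NDUFC2, -0.22 for NDUFB5, -0.20 for NDUFA13, -0.18 for NDUFA11 and -0.16 for NDUFB4. None of these 5 genes passed edgeR's test, with an adjusted p of 0.912 for each.

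Counted by unadjusted p under 0.05, NDUFAB1, NDUFA1, NDUFS6, NDUFC2, NDUFB5 and NDUFA13 made 6 of 34 genes, all of them accessory and all with lower fitted levels in Laiwu. Over all tested genes the share was 4.44%, made of 2.3% lower and 2.14% higher in Laiwu. Without Yorkshire 5 the number was 3, namely NDUFAB1, NDUFA1 and NDUFS6, beside 2.61% of all tested genes, made of 1.15% lower and 1.46% higher in Laiwu. Members covary within breeds, so these counts are not counts of separate events. The median fitted log2 fold change was -0.23 over the 18 membrane arm members and -0.07 over the 14 of the matrix arm. Without Yorkshire 5 these medians were -0.08 and 0.03. Whether the arms differ from each other was not tested.

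NDUFC1, which encodes a small subunit of the membrane arm, was at 40.3, 53.7, 49.8, 33.8, 31.6 and 32.7 FPKM in Laiwu libraries 1 to 6 and at 59.5, 36.1, 38.2, 56.2, 33.4 and 38.3 FPKM in Yorkshire libraries 1 to 6. The high libraries were Laiwu 2 and 3 and Yorkshire 1 and 4, and Yorkshire 5 was the lowest of its breed. NDUFA5 and NDUFS1, of the matrix arm, were also high in Laiwu 3 and Yorkshire 4, and each had its lowest Yorkshire value in Yorkshire 5 (5.08 FPKM for NDUFA5, where Yorkshire 2 was level with it, and 14.8 FPKM for NDUFS1). NDUFC1 lies on chromosome 8 at 87695266 to 87700899 and overlaps MGARP, on the same strand, by 3356 bases. Reads of this pair may not be told apart, so the level of NDUFC1 is uncertain.

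The pattern by library was led by Yorkshire 5. Taken as the median over the 34 genes of the deviation in log2 CPM from each gene's own mean, the level was 0.54 in Yorkshire 5, 1.45 times a gene's own mean. The Laiwu libraries lay between -0.19 (library 4) and 0.04 (library 1), and the other 5 Yorkshire libraries between -0.14 (library 3) and 0.15 (library 6). The breeds' means were -0.06 ± 0.08 in Laiwu and 0.07 ± 0.25 in Yorkshire (SD, n = 6 each), and -0.02 ± 0.11 in Yorkshire without library 5 (SD, n = 5). The Laiwu libraries and the remaining Yorkshire libraries covered overlapping ranges. The lowest FPKM of a member fell in Laiwu 4 for 12 genes and in Yorkshire 2 for 9.

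**Figure D2:**
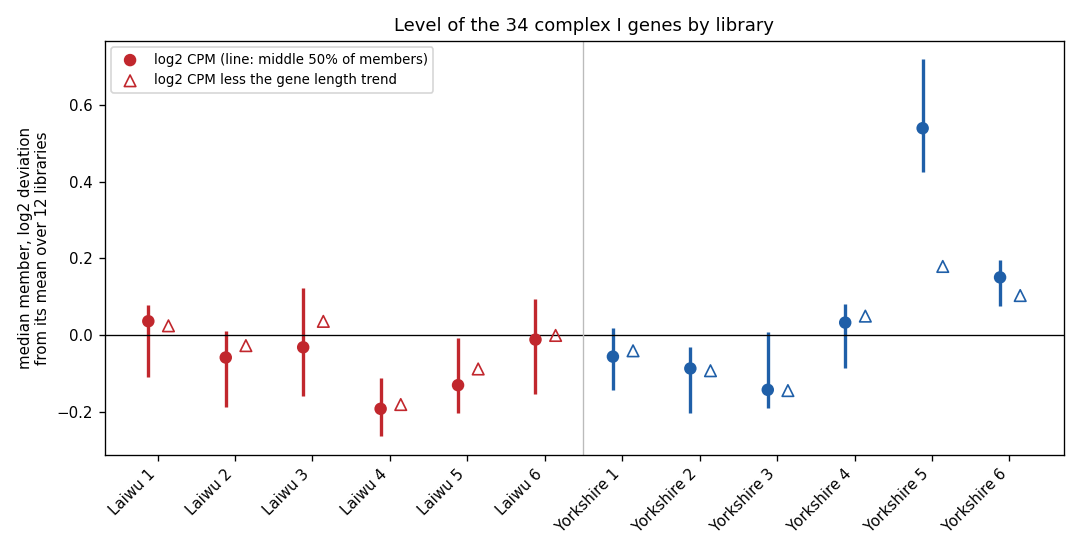
Median over the 34 complex I genes of the log2 deviation from each gene's mean, by library, as log2 CPM (filled, with a line for the middle 50% of genes) and after subtracting each library's trend on gene length (open triangles). Yorkshire 5 stands at 0.54 before and 0.18 after the subtraction.

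The complex I genes were short, and Yorkshire 5 held more reads of short genes in general. Gene length, taken as count over FPKM, had a median of 1592 bases over the 34 genes and 3647 bases over all tested genes, and 29 of the 34 lay at or under that median. In Yorkshire 5, the trend fitted over all tested genes had a median of 0.34 at the lengths of the 34 genes, beside their median deviation of 0.54. Among the 34 genes themselves, that deviation had a Spearman's rho of only -0.11 with length, against -0.433 over all tested genes. How much of the 0.54 goes with length was not tested. The deviation was above 0 in 31 of 34 genes, against 50.4% of all tested genes, and above the trend in 25 of 34. After the trend had been subtracted from each library, Yorkshire 5 was at 0.18, still the highest, with Yorkshire 6 at 0.10 next. Long members above the trend included NDUFB2, at 0.65 where the trend was -0.25, and NDUFC2, at 0.75 where it was 0.0052. Below 0 were NDUFS1 at -0.52, NDUFC1 at -0.21 and NDUFA5 at -0.09. NDUFS1 and NDUFA5 were among the longest members, with 5000 and 11162 bases, and NDUFC1 was a short one of 1248 bases.

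**Figure D3:**
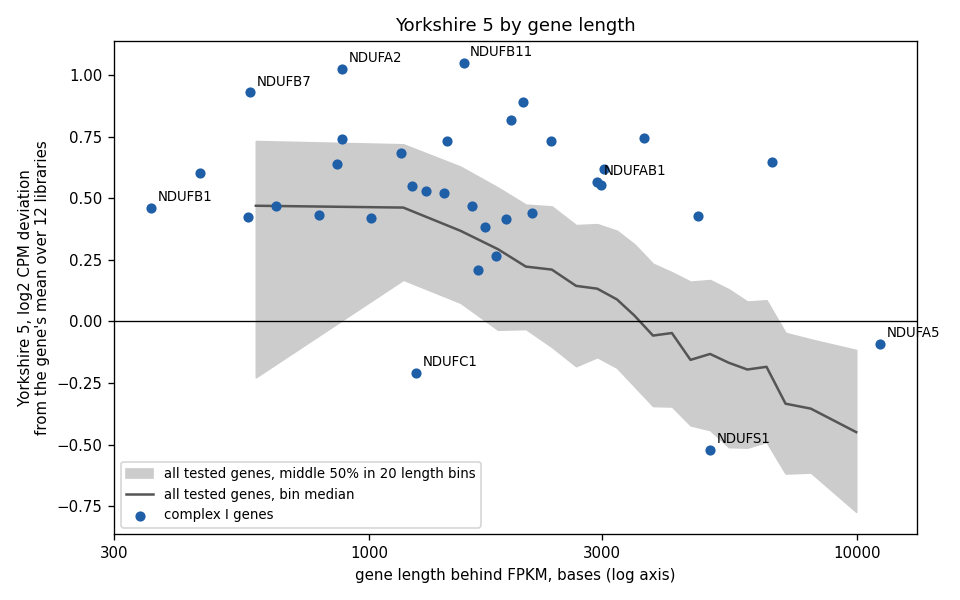
Deviation of Yorkshire 5 in log2 CPM from each gene's mean over 12 libraries against gene length (log axis), for the 34 complex I genes (points) and for all tested genes in 20 bins (line, median; band, middle 50%). The band slopes down with length, and 31 of the 34 points lie above 0.

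With each library's length trend entered as an offset in edgeR's fit, the median log2 fold change of the 34 genes was -0.06, with 22 below 0 and 12 above and 0 called, where 50.9% of all tested genes were below 0. Unadjusted p was under 0.05 for NDUFAB1, NDUFC2 and NDUFB5, 3 of 34 genes, where the share of all tested genes was 3.95%. NDUFAB1 had a log2 fold change of -0.29 in this fit. Across the 34 genes, the log2 fold changes had a Spearman's rho with gene length of -0.28 with the offset and 0.18 without it. With the offset and without Yorkshire 5 the median was -0.01, with 19 below 0 and 15 above, where 51.4% of all tested genes were below 0. Only NDUFAB1, 1 of 34 genes, then had an unadjusted p under 0.05, beside 2.6% of all tested genes. Across all 23 alternatives run, NDUFAB1 had a log2 fold change between -0.35 and -0.22 and an unadjusted p between 0.00405 and 0.0236. Its adjusted p lay between 0.4985 and 0.9996, so no alternative called it.

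**Figure D4:**
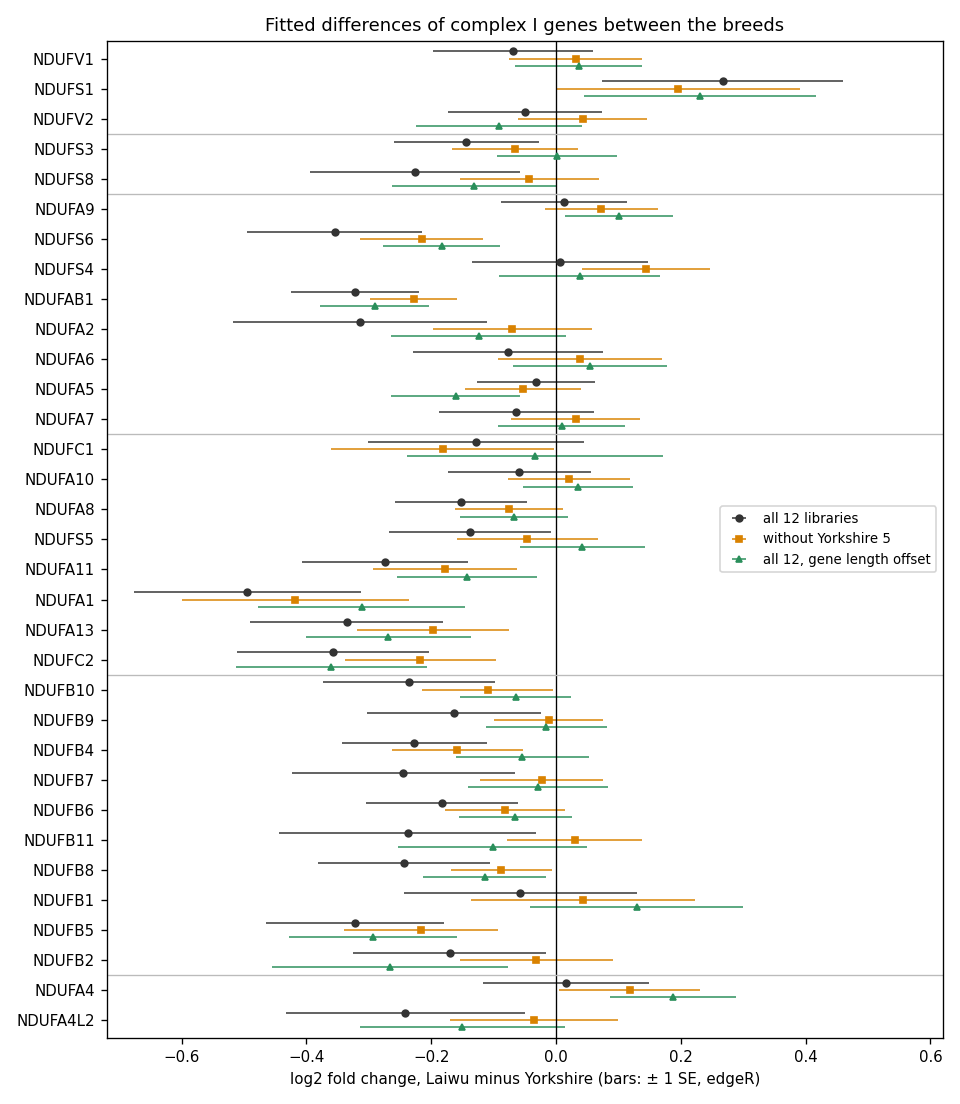
Log2 fold change (Laiwu minus Yorkshire) of 33 of the 34 complex I genes in edgeR's fit of all 12 libraries (circles), without Yorkshire 5 (squares) and with the gene length offset (triangles); bars are ± 1 SE. Most genes move toward 0 without Yorkshire 5, NDUFAB1 among them at -0.23, and NDUFA1 is then farthest from 0 at -0.42.

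Covariation of the members within breeds also rested in part on that library. Over 561 pairs of members, the mean Pearson's r of log2 CPM, taken as deviations from breed means, was 0.512 with all 12 libraries and 0.24 without Yorkshire 5. With the length trends subtracted it was 0.287 with all 12 libraries and 0.21 without Yorkshire 5. Over all pairs of tested genes it was 0.0, a mean that scaling to library size by itself brings near 0. It is therefore no reference for a set of genes of like length or level. NDUFS8 was the member closest to the rest, with a mean r of 0.68 and, without Yorkshire 5, 0.427. NDUFA2, NDUFA4L2 and NDUFB5 had a mean r below 0 without Yorkshire 5, at -0.204, -0.154 and -0.065. NDUFS1, by contrast, was at -0.008 with Yorkshire 5 and 0.333 without it. These correlations describe 12 libraries that share depth and length trends, and no p is attached to them.

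**Figure D5:**
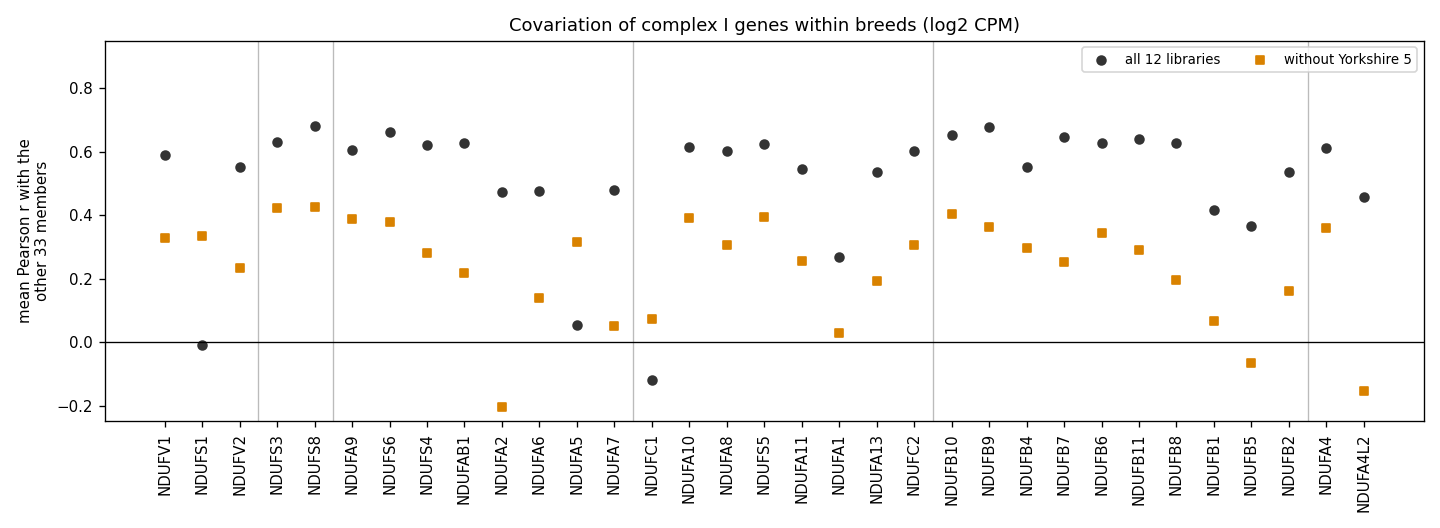
Mean Pearson's r of 33 of the 34 complex I genes, each with all other members, from log2 CPM deviations from the breed means, with all 12 libraries (circles) and without Yorkshire 5 (squares). NDUFS1, NDUFA5 and NDUFC1 are near or below 0 with all libraries.

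Among the other chain complexes, complexes III, IV and V had median fitted values below 0, as complex I had, and complex II one near that of all tested genes. Of their listed nuclear genes in the table, 0 were called with median log2 fold changes of -0.03 for complex II (4 genes), -0.13 for complex III (8), -0.20 for cytochrome c oxidase (11) and -0.13 for ATP synthase (11). Without Yorkshire 5 these medians were 0.02, -0.06, -0.05 and -0.06. In Yorkshire 5 the median log2 CPM deviation was 0.45 for complex III, 0.57 for cytochrome c oxidase and 0.39 for ATP synthase, the highest of the 12 libraries for these 3 complexes. For complex II that deviation was not taken by library. By summed FPKM, a different measure, complex II was at 165.3 to 237.1 FPKM in Laiwu and 177.4 to 231.4 FPKM in Yorkshire, with a Laiwu library highest. The highest sums in Laiwu and Yorkshire were 399.2 and 399.9 FPKM for complex III and 397.6 and 552.0 FPKM for cytochrome c oxidase. For ATP synthase they were 556.4 and 589.5 FPKM. Median gene length was 4195 bases in complex II, against 1759, 1568 and 3263 bases in these 3 complexes. The mean r between members without Yorkshire 5 was 0.692 in complex II, 0.44 in complex III, 0.267 in cytochrome c oxidase and 0.44 in ATP synthase, beside 0.24 in complex I, and whether these values differ was not tested.

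Assembly factors, which build the complex without staying in it, were expressed at lower levels. Of 19 listed, 17 were tested and 0 called, with 7 above 0 and 10 below and a median log2 fold change of -0.03. Without Yorkshire 5 the balance turned, with 11 above 0 and 6 below and a median of 0.03. Their median level was 4.42 FPKM. ECSIT, a factor of the membrane arm, averaged 39.96 ± 5.35 FPKM (SD) across Laiwu libraries and 43.4 ± 5.24 FPKM (SD) across Yorkshire libraries. DMAC2 averaged 16.3 ± 2.90 FPKM across Laiwu libraries and 17.1 ± 2.51 FPKM across Yorkshire libraries. NUBPL, which delivers iron-sulphur clusters to the complex, alone of the 17 tested had an unadjusted p under 0.05 by edgeR. Over all tested genes that share was 4.44%. NUBPL averaged 1.13 ± 0.233 FPKM (SD) across Laiwu libraries and 0.870 ± 0.0957 FPKM (SD) across Yorkshire libraries, with a fitted value above 0. As a group the factors showed a mean r of 0.016 within breeds.

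Fibre type and other cell types moved between libraries beside these values. Slow fibre markers, of which 9 of 10 listed were in the table, summed to 699.1 to 2926 FPKM in Laiwu and 1608 to 3448 FPKM in Yorkshire. Their median log2 CPM deviation was 1.09 in Yorkshire 5, where complex I was highest. It was -1.45 in Laiwu 1, where the complex I level was 0.04, and -0.91 in Laiwu 4, where that level was -0.19. The slow fibre value next below Yorkshire 5 was 0.41 in Laiwu 5, where the complex I level was -0.13. The median log2 fold change of the slow fibre markers was -0.53, with 8 of 9 below 0, and -0.32 without Yorkshire 5, with 9 of 9 below 0. Fast fibre markers (10 of 10) summed to 35130 to 42080 FPKM in Laiwu and 33890 to 43770 FPKM in Yorkshire. Their median log2 CPM deviation was also highest in Yorkshire 5, at 0.29, with 0.25 in Laiwu 1 and 0.08 in Laiwu 4. Markers of muscle fibres in general, ACTA1 and CKM among them, were highest in Yorkshire 5 too, at 0.30. Adipocyte markers (9 of 9) summed to 106.2 to 276.0 FPKM in Laiwu and 101.9 to 160.2 FPKM in Yorkshire, and fibroblast markers (7 of 7) to 232.0 to 694.5 FPKM in Laiwu and 264.0 to 469.9 FPKM in Yorkshire. The median log2 fold change was 1.10 for the adipocyte markers, with 7 of 8 tested above 0, and 0.39 for the fibroblast markers, with 7 of 7 above 0. By edgeR, 6 adipocyte markers had an unadjusted p under 0.05, beside 4.44% of all tested genes. Without Yorkshire 5 it was 4, beside 2.61%. Markers of 1 cell type can rise and fall together, so these are not counts of separate events. No gene of these lists was called. The slow fibre, adipocyte and fibroblast medians lay farther from 0 than the -0.17 of complex I. Nearer 0 were those of fast fibre markers (-0.13), general muscle fibre markers (-0.10), endothelial markers (0.01) and macrophage markers (-0.03). The 1 erythroid marker tested was at 0.24. Endothelial markers (7 of 7) summed to 28.7 to 46.6 FPKM in Laiwu and 26.5 to 51.6 FPKM in Yorkshire, and macrophage markers (7 of 7) to 13.3 to 41.5 FPKM in Laiwu and 13.8 to 34.1 FPKM in Yorkshire. Erythroid markers (3 of 5) summed to 3.73 to 14.5 FPKM in Laiwu and 3.31 to 14.2 FPKM in Yorkshire, and among them HBM and ALAS2 were listed at 0 in some libraries. The part of these markers in the complex I levels was not tested.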

How the data were processed

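Reads were checked with FastQC and aligned with HISAT2 2.2.1 to Sscrofa11.1, per the series' design text. StringTie 1.3.4d, cutadapt 1.9, edgeR and DESeq2 are named too, without a role, per the submitters' processing notes. The table deposited by the authors holds raw counts per gene and library and FPKM values, per the file headers. The sources used here do not give the counter, annotation release or strand setting, though the kit marks strand per the labels' protocols.

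Genes averaging 0.5 FPKM or more were tested (11205; 12066 left out) with edgeR 4.0.16 (TMM, robust quasi-likelihood, Laiwu minus Yorkshire, no covariate), limma 3.58.1 and DESeq2 1.42.0 serving for alternatives under R 4.3.3. The fit was also run on simulated counts, drawn for each gene apart and without length trends. Those results are not given, and nothing here rests on them. Each standard error is the absolute fold change over the root of its F value. Gene length was count over FPKM, and its trend per library a loess of log2 CPM deviation (span 0.5, prior count 2). Python 3.11.15 and matplotlib 3.10.9 drew the figures.

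The members and lists were chosen with earlier results of these data known. The values of 1 member, kept in all counts and medians, are not reported here. Fold changes are printed for the other core genes, NDUFAB1 and the 8 members of smallest p, and for NDUFA12, chosen after its values were seen. P-values set the difference between the breeds against the spread between libraries of a breed, which may be technical. The depth, at least 101 counts per member and library, limits precision by counting error only.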

Additional observations from a re-analysis of the deposited data

Results flagged for a closer look

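In 6 of the 34 genes the Yorkshire 5 value stood apart from the other 5 Yorkshire libraries, by its gap to the nearest of them over the whole range of the breed, judged against Dixon's critical value for 6 samples. Chance alone marks about 1 in 20 groups, and 68 groups were examined, 2 for each gene. The rule was not run on the other tested genes, so the 6 cannot be set against their share. Yorkshire 5 held the highest FPKM in 14.9% of all tested genes, and more reads of short genes in general. The 6 genes covary and share this library, so the marks are not separate events. NDUFB7, an accessory subunit of the membrane arm, was at 50.9 FPKM in Yorkshire 5, with the next Yorkshire value at 28.7 FPKM and a ratio of 0.873. NDUFB11, another such subunit, encoded on X, was at 48.8 FPKM, next to 26.9 FPKM. It overlaps RBM10 on the opposite strand by 1014 bases. NDUFS6 was at 44.6 FPKM, next to 31.5 FPKM, and NDUFA2, of the matrix arm, at 16.5 FPKM, next to 10.4 FPKM. NDUFB9 was at 67.6 FPKM, next to 47.4 FPKM, with a ratio of 0.6252 just past the critical value. NDUFA8, of the membrane arm, was at 28.5 FPKM, next to 23.99 FPKM. No Laiwu library was marked in any of the 34 genes.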

How the results depend on the processing

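The number of complex I genes called was 0 under every alternative run, and the number of all genes called was 0 under each except DESeq2, which called 1, not a member. The median log2 fold change of the 34 genes, -0.17 in the reported fit, stayed below 0 under each alternative and ran from -0.22 without Yorkshire 2 to -0.04 without Yorkshire 5 when single libraries were left out. It was -0.15 with library totals alone, -0.12 on log2(FPKM + 1) and on log2(FPKM + 0.1) by limma, -0.07 on log2(TPM + 1) by limma and -0.06 with the gene length offset. On the TPM scale the median of all tested genes was 0.07. The number of members not overlapping between breeds, 0 in FPKM, ran from 0 to 1 with single libraries left out. It was 1 (NDUFAB1) without Laiwu 5 or Yorkshire 2, 1 (NDUFS6) without Laiwu 6 and 1 (NDUFA1) without Yorkshire 1. Those were the libraries that overlapped the other breed in these genes, so leaving them out had to part the breeds. The number was also 1 (NDUFAB1) with the gene length offset, as on log2 CPM without it, and 1 (NDUFA12) with the 4 genes known by description. The share of all tested genes was 0.178% in FPKM with all 12 libraries and 0.214% without Yorkshire 5. It was not counted for the other settings, so their counts have no background.

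Of 330 log2 fold changes of the 15 genes given with one, 324 kept their sign, 6 turned and 0 passed the threshold. This count leaves out the fit with the gene length offset and without Yorkshire 5. In that fit the members' median was -0.01, with 19 below 0 and 15 above, so more signs may turn there. NDUFV1 was 0.0096 and NDUFV2 0.0288 on log2(TPM + 1), and NDUFV1 was 0.0364 and NDUFS3 0.0016 with the length offset. With single libraries left out, NDUFV1 ran from -0.1448 to 0.0317 and NDUFV2 from -0.0926 to 0.0431. The causes were not tested. With the replicate block, the number as a block in edgeR's fit, the members' median was -0.15, 0 genes were called and 433 had an unadjusted p under 0.05, against 498. Libraries of the same number correlated at -0.272 to 0.331 in their deviations from breed means. These values show no clear pairing by number, but they could miss a weak one.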
